A study of Homo sapiens with 12 samples.

Results

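The AP-1 and immediate early transcription factors were followed as 10 genes taken by symbol, whatever their signal: FOS, FOSB, FOSL1, FOSL2, JUN, JUNB, JUND, EGR1, SRF and MYC. They are 10 of 19775 genes that the arrays represent, and 8 of them were among the 13130 genes tested, because FOS and FOSB lay below the filter on low signal. Sk-hep1 is an established human cell line from ascites, labelled as an adenocarcinoma of the liver with an endothelial cell type. Gene expression was measured on Affymetrix arrays of 54675 probe sets in 4 groups of 3 arrays each. The groups were cells kept in high-fat medium (HFM, with DMEM/F12 as its base) for 12 hours, growth medium (GM, with DMEM as its base) for 12 hours, HFM for 24 hours and GM for 24 hours. All cells had been grown before in DMEM with 10% fetal bovine serum. No source used here names the fat added to HFM, and since HFM and GM have different basal media, the effects of fat and of base cannot be told apart. All groups came from 1 cell line, and nothing in the labels says that the 3 arrays of a group were separate cultures, so that p-values reflect the spread among these arrays alone, possibly a technical one.

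AP-1 is a dimer of a JUN protein with a FOS protein, another JUN protein or a related leucine zipper protein, and it binds short DNA sites in the promoters and enhancers of growth, stress and inflammatory genes. FOS, JUN and EGR1 are classic immediate early genes, whose transcription is switched on by growth factors, serum or stress without new protein synthesis. Serum response factor, SRF, sits on CArG boxes in the promoters of several of these genes and passes on signals from MAP kinases through the ELK proteins and from actin through the MRTF coactivators. MYC is a helix-loop-helix zipper protein that pairs with MAX and drives genes of ribosome production and growth.

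Values are log2 signals, and a change of 1 on this scale is a 2-fold change. Each gene was read from its probe set with the highest mean, and a gene was called when its Benjamini-Hochberg adjusted p from limma, over all 13130 genes, was under 0.05. Log2 changes are given as HFM minus GM with their standard error (n = 3 arrays per group). Probe sets differ in affinity, so levels are compared between groups for 1 probe set and never between genes. In bulk RNA of this kind, fewer cells with a transcript and less of it per cell cannot be told apart.

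In HFM at 24 hours, JUN, JUNB, JUND and MYC were higher than in GM, whereas FOSL1, SRF, EGR1 and the chosen probe set of FOSL2 were lower. JUN was 2.23-fold higher and JUND 2.05-fold higher, while SRF was 2.06-fold lower. In HFM at 12 hours the picture was different. JUNB and, by small amounts, JUN and MYC were lower than in GM, JUND did not pass the test, and FOSL1, SRF and EGR1 were lower as they were later.

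Of the 8 tested genes, 7 were called at 12 hours, 1 of them higher and 6 lower, and none changed 2-fold. Among all tested genes 61.9% were called at 12 hours, with 28.9% higher and 33.0% lower, and 2.18% were called and changed at least 2-fold. At 24 hours 8 of 8 were called, 4 higher and 4 lower, and 3 of them changed at least 2-fold. Among all tested genes 58.1% were called at 24 hours, with 20.6% higher and 37.5% lower, and 7.49% were called and changed at least 2-fold. The arrays of HFM and GM did not overlap for 6 of the 8 genes at 12 hours and for 8 of 8 at 24 hours, beside 63.6% and 68.7% of all tested genes. As most of the transcriptome was called at each time, a call alone does not set a factor apart, and the description turns on sizes and directions.

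**Figure D1:**
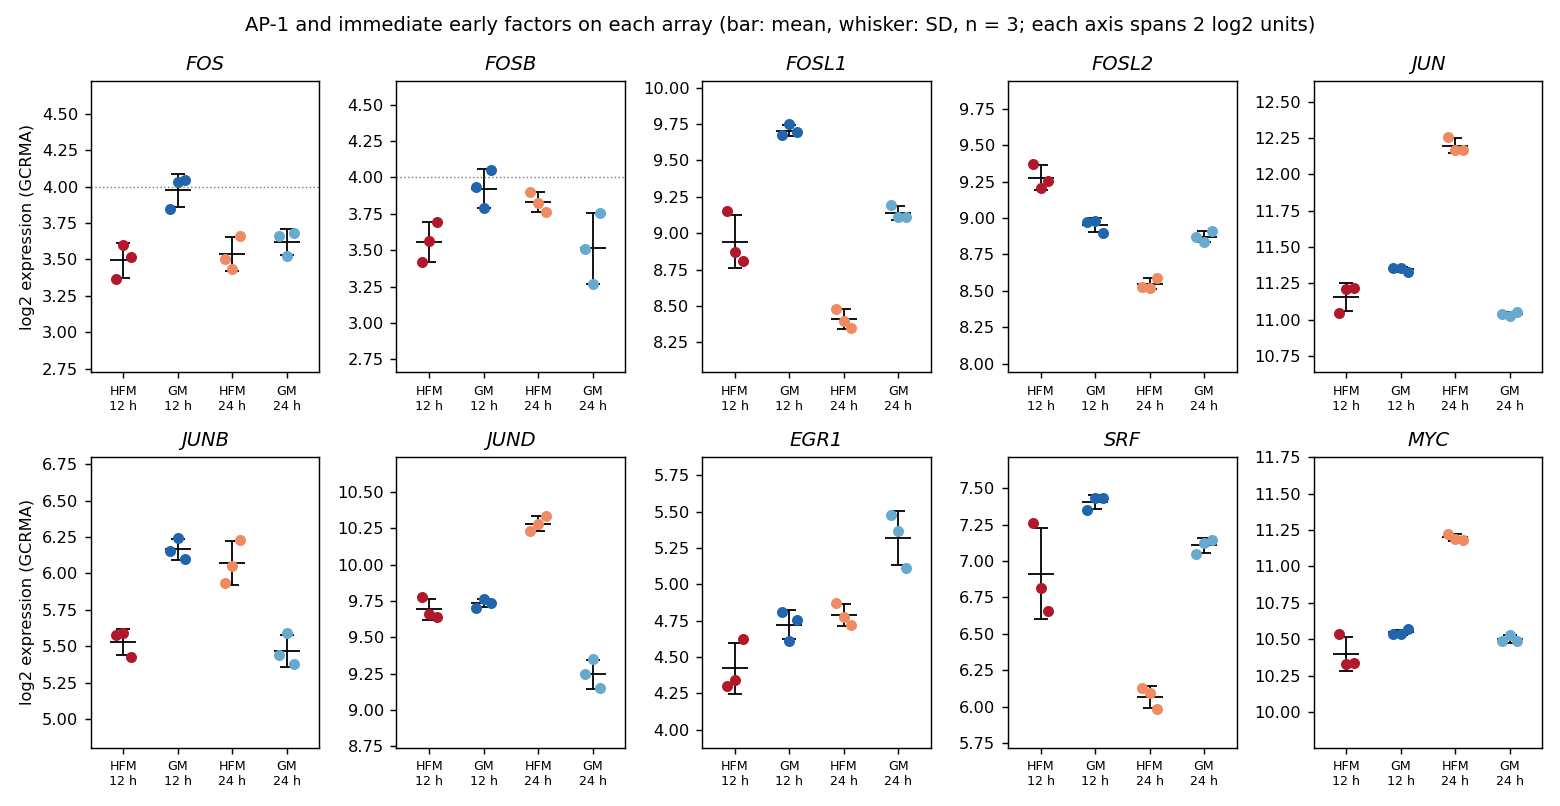
Log2 signal of the 10 factors on each of the 12 arrays (points), with the mean (bar) and SD (whisker) of each group, for HFM and GM at 12 and 24 hours. Each panel spans 2 log2 units and the dotted line marks log2 4, the level of the filter. The 3 HFM arrays at 24 hours stand above the other 9 for JUN, JUND and MYC and below the other 9 for FOSL1 and SRF.

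Promoter sequences are shown for JUN and JUND, which had the largest rises at 24 hours by the chosen probe sets. Those of SRF and EGR1, lower at 24 hours by their chosen probe sets, are shown because both hold CArG boxes. A part of these boxes in the changes was not tested. They are the 250 bases before the annotated start of each gene in RefSeq on GRCh38.p14, written 5′ to 3′ on the strand of the gene, and 8 of the 10 factors had an entry. The JUN promoter lies at chr1:58784048-58784297 on the minus strand, and its capitals mark the JUN-type AP-1 site TGACATCA at bases -67 to -60 and a MEF2 site at -55 to -46, counted from the base before the start. The JUND promoter lies at chr19:18281623-18281872 on the minus strand, and its capitals mark the cyclic AMP response element TGACGTCA at -200 to -193. The EGR1 promoter lies at chr5:138465229-138465478 on the plus strand, with CArG boxes in capitals at -105 to -96 and -83 to -74. The SRF promoter lies at chr6:43171019-43171268 on the plus strand, with CArG boxes in capitals at -30 to -21 and -10 to -1 and the EGR-type site GCGGGGGCG at -49 to -41. SRF has a further annotated start, whose promoter held none of these motifs.
JUN: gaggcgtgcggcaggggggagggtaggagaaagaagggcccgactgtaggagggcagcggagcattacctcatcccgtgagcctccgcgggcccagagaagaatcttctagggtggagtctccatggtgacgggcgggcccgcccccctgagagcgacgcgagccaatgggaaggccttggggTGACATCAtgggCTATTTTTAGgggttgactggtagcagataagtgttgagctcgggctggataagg
JUND: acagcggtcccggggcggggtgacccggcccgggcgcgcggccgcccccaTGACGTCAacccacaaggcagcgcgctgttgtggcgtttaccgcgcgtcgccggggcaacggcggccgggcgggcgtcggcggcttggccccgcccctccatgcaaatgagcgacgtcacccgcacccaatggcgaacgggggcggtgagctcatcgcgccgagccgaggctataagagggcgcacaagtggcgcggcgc
EGR1: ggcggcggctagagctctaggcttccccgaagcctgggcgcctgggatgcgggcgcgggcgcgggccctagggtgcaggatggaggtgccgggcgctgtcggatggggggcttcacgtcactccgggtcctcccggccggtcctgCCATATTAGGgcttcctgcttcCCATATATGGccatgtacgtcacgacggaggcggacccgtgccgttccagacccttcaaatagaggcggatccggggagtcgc
SRF: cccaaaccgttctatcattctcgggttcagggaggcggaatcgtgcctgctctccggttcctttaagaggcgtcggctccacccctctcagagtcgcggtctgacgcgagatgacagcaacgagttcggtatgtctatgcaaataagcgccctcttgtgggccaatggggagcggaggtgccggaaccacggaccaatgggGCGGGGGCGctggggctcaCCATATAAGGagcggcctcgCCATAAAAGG

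These motifs are uncommon among promoters of the same length. Searched on both strands in 35116 RefSeq promoters, the CArG box was found in 1.16%, TGACATCA in 2.37%, TGACGTCA in 1.65%, the MEF2 site in 0.515% and GCGGGGGCG in 4.72%. The classic AP-1 site TGACTCA, found in 4.2% of promoters, was in none of these windows of the factors, and neither was the E-box CACGTG, to which MYC and MAX bind and which 6.34% held. The other EGR-type site, GCGTGGGCG, was found in 0.72% and in none of the factors. The promoters of FOS, FOSB and JUNB held a TATA box, TATAAA, within 33 bases of the start, as did 10.7% of promoters somewhere in the window. A match describes letters in these windows and shows no binding.

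Of the FOS proteins, FOS itself (chromosome 14, 75278828 to 75282230, GRCh38.p14) is the rapidly induced founding member and FOSB (chromosome 19, 45467996 to 45475179) a close relative known from brain and bone. FOS had log2 signals of 3.36, 3.60 and 3.52 in HFM and of 3.84, 4.03 and 4.05 in GM at 12 hours. At 24 hours it had 3.51, 3.43 and 3.66 in HFM and 3.66, 3.52 and 3.68 in GM. FOS thus stayed near the low end of the scale on all 12 arrays, with its highest values in GM at 12 hours. FOSB had 3.42, 3.56 and 3.69 in HFM and 3.93, 3.79 and 4.05 in GM at 12 hours, and 3.90, 3.83 and 3.76 in HFM and 3.51, 3.27 and 3.76 in GM at 24 hours. Its HFM arrays lay below the GM arrays at 12 hours and above them at 24 hours. Without the filter, the limma log2 change of FOS at 12 hours was -0.48 ± 0.09 (adjusted p = 0.00086) and that of FOSB -0.37 ± 0.12 (adjusted p = 0.023). At 24 hours, without the filter, FOS differed by -0.09 ± 0.09 (adjusted p = 0.5) and FOSB by 0.32 ± 0.12 (adjusted p = 0.049). These 2 genes, with signals under or near the filter, entered no count.

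FOSL1 (chromosome 11, 65892049 to 65900545), also called FRA1, is a FOS relative without a strong activation domain that is often high in invasive tumour cells. Its log2 signals were 9.15, 8.87 and 8.81 in HFM and 9.67, 9.75 and 9.69 in GM at 12 hours. They were 8.48, 8.40 and 8.35 in HFM and 9.19, 9.11 and 9.11 in GM at 24 hours. Every HFM array lay below every GM array of its time. The log2 change was -0.76 ± 0.08 at 12 hours (limma, adjusted p = 9.7e-06) and -0.73 ± 0.08 at 24 hours (adjusted p = 8.5e-06). The fall therefore had nearly the same size at both times, and the change at 24 hours minus that at 12 hours was 0.03 ± 0.11 with a 95% interval of -0.21 to 0.28 (adjusted p = 0.82). With each array centred on the median of its tested genes, this difference was 0.24 and was called. FOSL1 also fell with time in both media, by 0.53 in HFM and by 0.57 in GM on the log2 scale between 24 and 12 hours (adjusted p = 0.0001 and 6.1e-05, limma). In order of level, GM at 12 hours was highest, GM at 24 hours and HFM at 12 hours overlapped, and HFM at 24 hours was lowest.

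FOSL2 (chromosome 2, 28392858 to 28417317), or FRA2, is the other FOS-related antigen, and it was read by 5 probe sets that disagreed in direction. The probe set with the highest mean, 228188_at, had log2 signals of 9.37, 9.20 and 9.25 in HFM and 8.98, 8.98 and 8.90 in GM at 12 hours. At 24 hours it had 8.53, 8.52 and 8.59 in HFM and 8.87, 8.83 and 8.91 in GM. By this probe set FOSL2 was higher in HFM at 12 hours, by 0.33 ± 0.06 (adjusted p = 0.00036, limma), and lower at 24 hours, by -0.32 ± 0.06 (adjusted p = 0.0003). Another probe set, 218880_at, had 7.63, 7.51 and 7.53 in HFM and 7.29, 7.22 and 7.34 in GM at 12 hours, and 9.24, 9.28 and 9.19 in HFM and 6.77, 6.79 and 6.69 in GM at 24 hours. By this one FOSL2 was far higher in HFM at 24 hours, by 2.48 ± 0.06 (adjusted p = 2.7e-11, limma over 29787 probe sets). The probe sets 218881_s_at and 205409_at were also higher in HFM at 24 hours, by 1.05 ± 0.10 and 1.19 ± 0.09 (adjusted p = 2.7e-06 and 3.4e-07), whereas 225262_at was lower, by -0.54 ± 0.07 (adjusted p = 1.9e-05). At 24 hours 2 of the 5 probe sets were thus lower and 3 higher, and the mean over the probe sets was 0.77 higher. The transcripts or ends of the gene that each probe set reads were not analysed here, and no direction is given for FOSL2 as a gene.

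**Figure D2:**
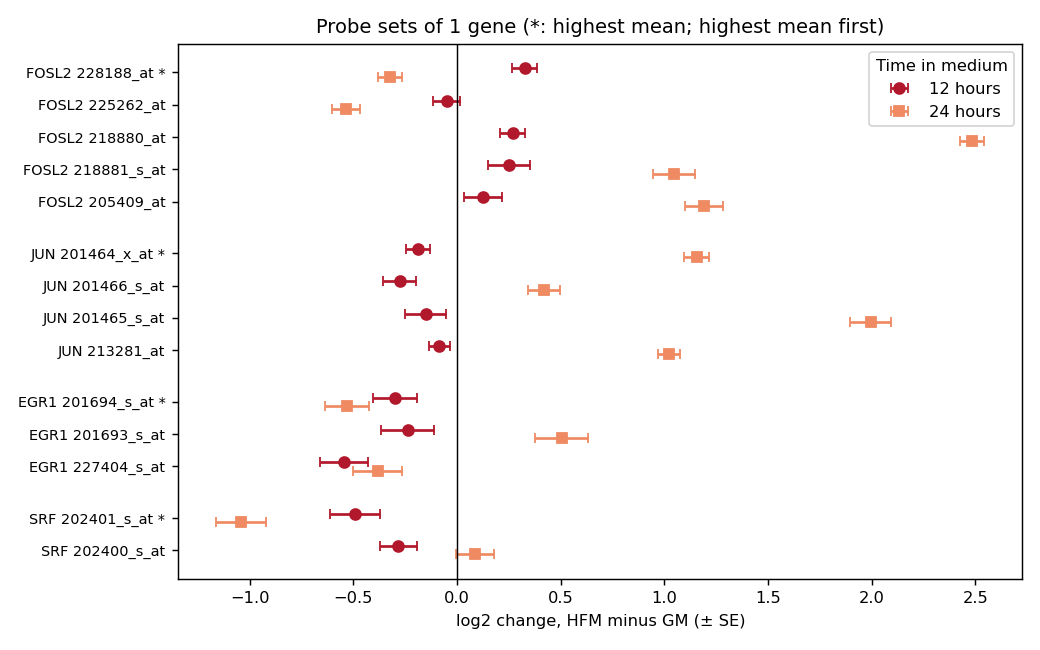
Log2 change of HFM minus GM (± SE) at 12 and 24 hours for each tested probe set of the factors with several probe sets, the chosen one starred and placed first. At 24 hours the probe sets of FOSL2 range between -0.54 and 2.48 and cross 0, while all 4 of JUN are above 0.

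JUN (chromosome 1, 58780791 to 58784047) is the founding AP-1 subunit, activated by JUN N-terminal kinases under stress. Its log2 signals were 11.05, 11.21 and 11.22 in HFM and 11.36, 11.35 and 11.33 in GM at 12 hours. They were 12.26, 12.17 and 12.17 in HFM and 11.04, 11.03 and 11.05 in GM at 24 hours. The 3 HFM arrays at 24 hours stood above all others, and those at 12 hours lay just under their GM arrays. JUN was higher in HFM at 24 hours by 1.16 ± 0.05 (adjusted p = 7.1e-09, limma). At 12 hours it was lower by -0.19 ± 0.05 (adjusted p = 0.011), a difference that was not called when only the HFM and GM arrays of 12 hours entered the fit (adjusted p = 0.053). The 3 other JUN probe sets were higher at 24 hours as well, by 1.99 for 201465_s_at, 1.02 for 213281_at and 0.42 for 201466_s_at, each called. At 12 hours only 201466_s_at among them was called, at -0.28 (adjusted p = 0.0095).

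JUNB (chromosome 19, 12791486 to 12793315) is a JUN protein that can oppose JUN on shared sites. Its log2 signals were 5.57, 5.59 and 5.43 in HFM and 6.15, 6.25 and 6.10 in GM at 12 hours, and 5.93, 6.05 and 6.23 in HFM and 5.44, 5.59 and 5.38 in GM at 24 hours. HFM was the lower group at 12 hours and the higher one at 24 hours, without overlap at either time. The log2 change was -0.63 ± 0.08 at 12 hours (adjusted p = 6.4e-05, limma) and 0.60 ± 0.08 at 24 hours (adjusted p = 6.6e-05). By level, GM at 12 hours and HFM at 24 hours overlapped at the top, and HFM at 12 hours and GM at 24 hours overlapped at the bottom.

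JUND (chromosome 19, 18279694 to 18281622) is the JUN protein with the most constant expression in resting cells. Its log2 signals were 9.77, 9.66 and 9.64 in HFM and 9.70, 9.76 and 9.74 in GM at 12 hours. At 24 hours they were 10.23, 10.28 and 10.33 in HFM and 9.25, 9.35 and 9.15 in GM. The media overlapped at 12 hours and were clearly apart at 24 hours. At 12 hours the difference was -0.04 ± 0.06 with a 95% interval of -0.18 to 0.09 (adjusted p = 0.57, limma). At 24 hours JUND was higher in HFM by 1.03 ± 0.06 (adjusted p = 4.5e-08). Of its 4 probe sets only this one, 203752_s_at, lay well above the low end of the scale.

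EGR1 (chromosome 5, 138465479 to 138469303) is a zinc finger factor that binds GC-rich sites and is induced through the CArG boxes shown above. Its log2 signals were 4.30, 4.34 and 4.62 in HFM and 4.81, 4.61 and 4.75 in GM at 12 hours, and 4.87, 4.78 and 4.72 in HFM and 5.48, 5.37 and 5.11 in GM at 24 hours. All values were low, the media overlapped at 12 hours, and HFM lay below GM at 24 hours. The log2 change was -0.30 ± 0.11 at 12 hours (adjusted p = 0.027, limma) and -0.53 ± 0.11 at 24 hours (adjusted p = 0.00095). The call at 12 hours was lost when HFM replicate 1, HFM replicate 2, GM replicate 1 or GM replicate 3 of that time was left out, with values between -0.29 and -0.24. At 24 hours the probe set 201693_s_at was higher in HFM by 0.51 (adjusted p = 0.0047) and 227404_s_at lower by -0.38 (adjusted p = 0.014), so the fall of EGR1 rests on 2 of its 3 probe sets. By its chosen probe set EGR1 was higher at 24 than at 12 hours in both media.

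SRF (chromosome 6, 43171269 to 43181506) is the factor that binds CArG boxes, the motif marked in the EGR1 promoter and in its own. Its log2 signals were 7.26, 6.82 and 6.66 in HFM and 7.35, 7.43 and 7.43 in GM at 12 hours. At 24 hours they were 6.13, 6.09 and 5.98 in HFM and 7.05, 7.13 and 7.15 in GM. SRF was lower in HFM at both times without overlap, and HFM replicate 1 at 12 hours lay apart from its fellows near the GM arrays. The log2 change was -0.49 ± 0.12 at 12 hours (adjusted p = 0.0039, limma) and -1.04 ± 0.12 at 24 hours (adjusted p = 1.2e-05). Without HFM replicate 1 of 12 hours, the change at 12 hours was -0.67. The other probe set, 202400_s_at, lay close to log2 4 on every array and differed by -0.28 at 12 hours (adjusted p = 0.019) and by 0.09 at 24 hours (adjusted p = 0.44).

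MYC, read by 1 probe set, had log2 signals of 10.53, 10.33 and 10.33 in HFM and 10.54, 10.54 and 10.57 in GM at 12 hours. At 24 hours it had 11.23, 11.19 and 11.18 in HFM and 10.49, 10.53 and 10.49 in GM. The HFM arrays at 24 hours stood above all others, and the remaining groups lay close together. MYC was higher in HFM at 24 hours by 0.70 ± 0.06 (adjusted p = 7.6e-07, limma), a 1.62-fold difference. At 12 hours it was lower by -0.15 ± 0.06 (adjusted p = 0.043), a call that was lost in 11 of the 12 fits that left out 1 array, the exception being the fit without HFM replicate 1 of 12 hours. The values of these fits lay between -0.22 and -0.11.

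**Figure D3:**
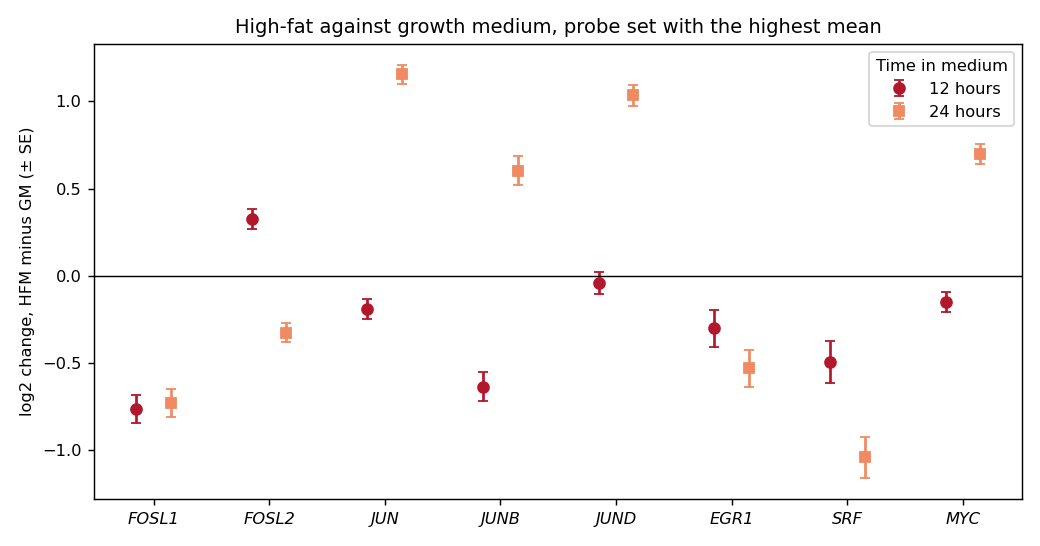
Log2 change of HFM minus GM (± SE, n = 3 arrays per group) for the 8 tested factors at 12 hours (circles) and 24 hours (squares), chosen probe sets. JUN, JUNB, JUND and MYC lie above 0 at 24 hours and at or below it at 12 hours, FOSL1 stays near -0.7 at both times, and SRF reaches -1.04 at 24 hours.

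The change in HFM at 24 hours was then set against that at 12 hours in 1 test for each gene, the difference of the HFM effects. Of the 8 tested factors 6 were called, 4 with a positive and 2 with a negative difference, beside 52.8% of all tested genes, 19.4% positive and 33.4% negative. JUN, JUNB and JUND had called differences of at least 2-fold, beside 7.96% of all tested genes. JUN had a difference of 1.34 ± 0.08 (adjusted p = 1e-07, limma), JUNB of 1.24 ± 0.12 (adjusted p = 5.3e-06), JUND of 1.08 ± 0.09 (adjusted p = 1.2e-06) and MYC of 0.85 ± 0.08 (adjusted p = 5.1e-06). These 4 thus moved upward in HFM relative to GM between the times. SRF had a difference of -0.55 ± 0.17 (adjusted p = 0.017), which was -0.37 without HFM replicate 1 of 12 hours and was not called when arrays were centred (-0.35). By the other SRF probe set, 202400_s_at, with signals close to log2 4, the difference was 0.37 (adjusted p = 0.030, limma). FOSL2 had -0.65 ± 0.08 by its chosen probe set (adjusted p = 2.9e-05) and 2.21 by 218880_at. FOSL1 and EGR1 did not pass this test.

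The same arrays were then compared over time within each medium. In HFM, 24 hours was higher than 12 hours for JUN by 1.04, MYC by 0.80, JUND by 0.59, JUNB by 0.54 and EGR1 by 0.37, and lower for SRF, FOSL1 and the chosen probe set of FOSL2, so that 8 of 8 were called, 5 higher and 3 lower, beside 63.1% of all tested genes, 20.1% higher and 43.1% lower. JUN alone of these changed at least 2-fold in HFM, as did 7.65% of all genes, and the arrays of the 2 times did not overlap for 8 of 8, beside 65.9%. In GM, 24 hours was lower than 12 hours for JUNB by -0.70, FOSL1 by -0.57, JUND by -0.49, JUN by -0.31 and SRF by -0.30, and higher for EGR1 by 0.60, so that 6 of 8 were called, 1 higher and 5 lower, beside 69.9% of all tested genes, 29.4% higher and 40.5% lower. None of them changed 2-fold in GM, beside 4.27% of all genes, and the arrays of the 2 times did not overlap for 7 of 8, beside 78.9%. Of the other FOSL2 probe sets 218880_at, 205409_at and 218881_s_at were higher at 24 than at 12 hours in HFM, by 1.68, 0.81 and 0.40. JUN, JUNB and JUND moved up with time in HFM and down in GM. MYC moved in HFM and differed in GM by only -0.05 ± 0.06 (adjusted p = 0.5, limma). These comparisons share arrays with those between media and are no separate evidence. The call for SRF in GM was lost in 8 of the 12 fits that left out 1 array, those without any 1 of the 6 GM arrays or without HFM replicate 1 or 2 of 24 hours, at values between -0.32 and -0.27.

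Other immediate early genes were taken from a list of 37, of which 30 were tested. At 12 hours 5 were higher and 15 lower in HFM, beside 28.9% and 33.0% of all tested genes. The median log2 change was -0.19, beside -0.07 for all tested genes. IER2, an immediate early nuclear protein, differed by -1.15, KLF2, a zinc finger factor of endothelial cells, by -1.06 and IER3, a survival regulator, by -0.99. At 24 hours 17 were higher and 6 lower, beside 20.6% and 37.5% of all tested genes. The median was 0.50, beside -0.08 for all genes. Without HFM replicate 2 of 24 hours 17 of the list were higher and 3 lower. PPP1R15A, which restarts translation after stress, was higher by 2.20, ATF3, a stress-induced zipper protein, by 2.11 and ZFP36, which marks cytokine messages for decay, by 1.93. The median of the list had the signs of the JUN, JUNB, JUND and MYC changes at both times, though JUND was not called at 12 hours. Of the list 22 genes had a positive and 2 a negative difference between times, beside 19.4% and 33.4% of all tested genes.

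Of 11 tested zipper partners of the FOS and JUN proteins, 3 were higher and 4 lower at 12 hours. At 24 hours 5 were higher and 4 lower. Among all tested genes 28.9% were higher and 33.0% lower at 12 hours, and 20.6% higher and 37.5% lower at 24 hours. Counts near these shares do not set a list apart, here or in the lists that follow. BATF2, an interferon-linked partner of JUN, was lower by -0.86 at 12 hours, and MAFF, a small MAF protein, was lower by -0.77 at 12 hours and higher by 0.77 at 24 hours. ATF3, which also belongs here, was already higher by 0.65 at 12 hours, and BATF3, a partner of JUN in immune cells, was lower by -0.78 at 24 hours. The median of this list was 0.05 at 12 hours and -0.06 at 24 hours, and with centred arrays 0.12 at 24 hours. It was -0.0012 at 12 hours without HFM replicate 1 of that time and 0.020 at 24 hours without HFM replicate 2, so neither median has a settled sign. Of the MAP kinase route to AP-1, 13 of 18 genes were tested, and 6 were higher and 3 lower at each time. MAPK8, the JUN N-terminal kinase JNK1, was higher by 0.58 at 12 hours, while MAP2K4, a kinase that activates it, was lower by -0.75 at 24 hours. RPS6KA3, a ribosomal S6 kinase that acts on FOS and SRF, was higher by 0.80 at 12 hours, and its relative RPS6KA1 was lower by -0.65 at 12 hours and by -0.56 at 24 hours. MAPK7, or ERK5, which acts through MEF2 proteins, was lower by -0.58 at 24 hours.

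SRF cofactors numbered 5 tested genes, of which 2 were higher and 2 lower at 12 hours and 1 higher and 3 lower at 24 hours. ELK4, a ternary complex factor, was higher by 0.80 at 12 hours and by 0.76 at 24 hours, and ELK1, its relative, was lower by -0.35 at 12 hours. The actin-sensing coactivators were lower, MRTFA by -0.42 at 12 hours and by -0.59 at 24 hours, and MRTFB by -1.06 at 24 hours. With the mean of each gene's probe sets 3 cofactors were higher and 1 lower at 24 hours. Among 14 tested target genes of SRF and MRTF proteins, 2 were higher and 5 lower at 12 hours, with a median of -0.04. At 24 hours 3 were higher and 5 lower, with a median of -0.07. Of all tested genes 28.9% were higher and 33.0% lower at 12 hours, with a median of -0.07. At 24 hours 20.6% of them were higher and 37.5% lower, with a median of -0.08. A part of SRF in the changes of these targets was not tested. TGFB1I1, a focal adhesion protein, was lower by -0.73 and CNN2, a calponin, by -0.42 at 12 hours, and CALD1, which binds actin and myosin, was higher by 0.59. At 24 hours TAGLN, a smooth muscle actin-binding protein, was lower by -0.37, and ZYX and FHL2, both adhesion proteins, were higher by 0.31 and 0.29. When arrays were centred, 7 of these targets were higher and 0 lower at 24 hours by limma, so the split of this list depends on the scaling. At 12 hours 1 was higher and 2 lower without HFM replicate 2 or without GM replicate 3, and 1 higher and 3 lower without HFM replicate 3 or without GM replicate 2.

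Of 16 tested AP-1 target genes, 3 were higher and 8 lower at 12 hours, with a median of -0.27, and 7 were higher and 4 lower at 24 hours, with a median of 0.12, or 10 higher and 2 lower with centred arrays. Without HFM replicate 1 of 24 hours 7 were higher and 2 lower, and without HFM replicate 3, GM replicate 2 or GM replicate 3 of 24 hours 6 were higher and 2 lower. Of all tested genes 28.9% were higher and 33.0% lower at 12 hours, with a median of -0.07. At 24 hours 20.6% of them were higher and 37.5% lower, with a median of -0.08. IL6, an inflammatory cytokine, had the widest fall of the list at both times, by -1.85 at 12 hours and by -2.10 at 24 hours. CXCL8, a neutrophil attractant, was lower by -1.43 at 12 hours and higher by 0.90 at 24 hours, and HBEGF, a ligand of the EGF receptor, was lower by -0.93 at 12 hours. CCND1, cyclin D1, was lower by -0.97 at 24 hours. IL6 and CCND1, among the 4 lower targets, thus fell at 24 hours while JUN, JUNB and JUND were higher, as were 7 targets with CXCL8 among them. EGR1 corepressors and targets, 7 tested, had 1 higher and 4 lower at 12 hours and 3 higher and 3 lower at 24 hours. F3, the tissue factor of coagulation, was lower by -0.57 at 12 hours and by -1.40 at 24 hours, and PDGFB, a growth factor, was lower by -0.44 at 12 hours. NAB1, a corepressor that EGR1 recruits, was higher by 0.47 and 0.53 at the 2 times, and ICAM1, an adhesion molecule, was higher by 0.61 at 24 hours.

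MAX, the partner that MYC needs to bind DNA, was lower by -0.46 at 12 hours. In its network of 10 tested genes 3 were higher and 5 lower at each time. Of all tested genes 28.9% were higher and 33.0% lower at 12 hours, and 20.6% higher and 37.5% lower at 24 hours. MXD1, which competes with MYC for MAX, was higher by 0.74 at 12 hours and by 2.76 at 24 hours. Its rise at 12 hours was between low signals, with means of 4.57 in HFM and 3.82 in GM, the latter below the filter level. MXI1, another such competitor, was higher by 0.88 at 24 hours, while MLXIP, a glucose-sensing partner of MLX, was lower by -0.77 at 24 hours and MLX itself by -0.34 at 12 hours. With centred arrays 4 of the network were higher and 2 lower at 24 hours, and without probe sets ending in _x_at or _s_at 2 of 9 were higher and 2 lower at 12 hours. Of 24 tested MYC target genes, 3 were higher and 14 lower at 12 hours and 0 higher and 17 lower at 24 hours by limma. Their medians were -0.20 and -0.34, beside -0.07 and -0.08 for all tested genes. RRS1, a ribosome assembly factor, was lower by -0.77 at 12 hours and by -1.62 at 24 hours, and NOP16, a nucleolar protein, and ODC1, which makes polyamines, were lower by -1.11 and -1.09 at 24 hours. NOP58, a core protein of nucleolar particles, and EIF4E, the cap-binding protein, were higher at 12 hours by 0.59 and 0.56. At 24 hours 17 of the 24 targets were thus lower in HFM and 7 did not pass the test, beside 20.6% higher and 37.5% lower among all tested genes. MYC itself was higher, and its part in the changes of these targets was not tested. With centred arrays 2 targets were higher and 14 lower at 24 hours, while 58.6% of all called genes were higher. With a term for the hybridisation controls of the arrays, 5 were higher and 6 lower at 12 hours.

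**Figure D4:**
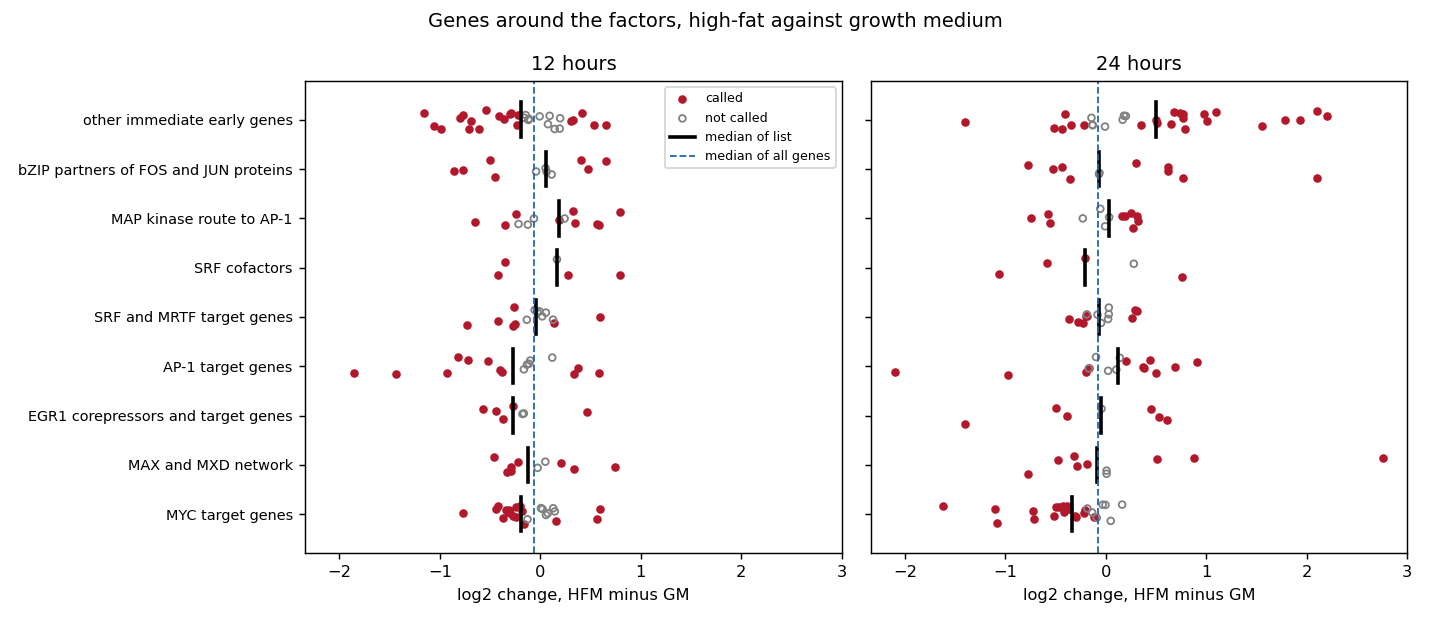
Log2 change of HFM minus GM at 12 and 24 hours for the tested genes of 9 lists around the factors, 1 point per gene, filled where called, with the median of each list (bar) and of all tested genes (dashed line). Other immediate early genes have a median of -0.19 at 12 hours and 0.50 at 24 hours, and MYC targets one of -0.34 at 24 hours.

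The genes whose pattern was nearest to that of a factor were listed for the 4 factors whose group means spanned at least 1 log2 unit. Nearness was the root mean square difference over the 12 arrays after each gene was centred on its own mean, in log2 units. Nearest to JUN were BEX2 (0.052), DUSP1 (0.076), a phosphatase that turns off MAP kinases, and AKAP17A (0.080), beside a median of 0.545 over all tested genes. Nearest to JUND were THBD (0.055), the endothelial thrombin receptor thrombomodulin, LGALS3BP (0.060) and LOXL2 (0.076), beside 0.471. Nearest to FOSL1 were ARRDC2 (0.056), UCK1 (0.069) and CTNS (0.070), beside 0.447, and nearest to SRF were BIN3 (0.083), DNAJC30 (0.083) and PLXNA1 (0.097), beside 0.492. BEX2, DUSP1 and AKAP17A share with JUN a single high group, HFM at 24 hours. As all these genes were picked for nearness on the same arrays, the shared pattern and the small differences follow from the choice.

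Arrays within a group correlated across genes at a mean r of 0.994 in HFM at 12 hours, where replicate 1 stood apart, and of 0.998 in each other group, and array medians lay between 4.05 and 4.09. The ACTB 3′ minus 5′ difference, a measure of RNA integrity, was 0.84 ± 0.13 in HFM and 0.89 ± 0.03 in GM at 12 hours, and 1.58 ± 0.06 in HFM and 1.07 ± 0.05 in GM at 24 hours (log2, SD, n = 3). It was thus highest in the group in which JUN, JUND and MYC stood highest and SRF and FOSL1 lowest, and its part in these results was not tested. The spiked-in hybridisation controls were higher on 4 arrays of 12 hours, HFM replicate 1 and the 3 of GM, than on the remaining 8. With a term for these 2 classes, chosen after seeing the data, HFM and GM at 12 hours are compared through 1 HFM array. The change at 12 hours was then -0.14 for SRF and -0.01 for MYC, and neither was called. Centring the arrays moved the median change of all tested genes at 24 hours to 0.10 and the share of higher genes among those called to 58.6%, beside 35.4% without it. No called factor changed direction with centring or with repeated quantile normalisation. The same share for the difference between times was 61.8% with centring and 47.4% with quantile normalisation, beside 36.8%, and that for HFM at 24 against 12 hours 57.5% with centring, beside 31.8%.

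The labelled endothelial type was only partly borne out by its markers. Of 14 endothelial markers 7 passed the filter, ENG, EGFL7 and ROBO4 among them, and CDH5, VWF, KDR, TEK, TIE1, ERG and CLDN5 did not, with KDR between 1.97 and 2.33 on all arrays. The other passing markers, PECAM1, ESAM, ICAM2 and NOS3, lay close to the filter, with medians of 4.129, 4.095, 4.158 and 4.30. The log2 of the summed level of the list ranged over 8.85 to 9.10 in HFM and 9.41 to 9.44 in GM at 12 hours, and over 8.68 to 8.78 in HFM and 8.85 to 8.97 in GM at 24 hours. Of 9 hepatocyte markers with a probe set 5 passed, ALB, APOA1, APOB and FGB did not, and the summed level ranged over 7.40 to 7.43 in HFM and 7.52 to 7.55 in GM at 12 hours, and over 7.50 to 7.53 in HFM and 7.34 to 7.38 in GM at 24 hours. Of 10 epithelial markers 6 passed, led by the keratins KRT8 and KRT18, while EPCAM, CDH1, CLDN4 and ESRP1 did not. Their summed level ranged over 14.30 to 14.47 in HFM and 14.57 to 14.60 in GM at 12 hours, and over 14.04 to 14.11 in HFM and 14.19 to 14.26 in GM at 24 hours. Of 7 leukocyte markers 3 passed, PTPRC not among them, and the summed level ranged over 7.27 to 7.41 in HFM and 7.71 to 7.80 in GM at 12 hours, and over 7.11 to 7.18 in HFM and 7.20 to 7.28 in GM at 24 hours. The endothelial, epithelial and leukocyte sums were thus lower in HFM at both times, as FOSL1 and SRF were. The hepatocyte sum was lower at 12 hours and higher at 24 hours, as JUN, JUNB and MYC were. The part of these sums in the results was not tested.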

How the data were processed

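The deposited values are log2 signals of 54675 probe sets on 12 Affymetrix arrays of total RNA, for which the submitters' processing notes name GCRMA as the tool that the authors used. Neither its version nor a filter is stated in these sources. Probe sets with exactly 1 symbol in the platform annotation (41097 of them) stood for genes, 1801 with several and 11777 with none were left unnamed, and each of 19775 genes was read from its probe set with the highest mean. Tests covered genes that reached log2 4 on 3 or more arrays. A model with 4 group means was fitted to all 12 arrays with limma 3.58.1 (lmFit, eBayes) in R 4.3.3, with Benjamini-Hochberg adjustment over 13130 genes. It was also run on simulated data with independent noise, few changed genes and no shift of whole arrays. Most genes were called in the real data, so that run cannot vouch for these calls. The number of arrays limits the precision.

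The 10 factors were named whatever their values, with up to 3 called genes of each list per comparison of media, those with the largest changes, and the 3 nearest genes. Lists share some genes. The factors and lists were chosen with earlier results of these data known, and the lists are no independent evidence. Promoters are from RefSeq. Alternatives were other filters, averaged probe sets, other probe sets, leaving out probe sets ending in _x_at or _s_at, centring, a robust eBayes with a trend, quantile normalisation, fits on the compared groups alone, a replicate block, terms for hybridisation controls and leaving out each array. The planned hybridisation term set 1 array apart, GM replicate 2 of 24 hours, so it gave the same results as leaving that array out. The values given with a hybridisation term are from the other split. Plots came from Python 3.11.15 and matplotlib 3.10.9.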

Additional observations from a re-analysis of the deposited data

Results flagged for a closer look

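For 6 factors the log2 change in HFM against GM differed between 24 and 12 hours by the test of that difference (limma, adjusted over all tested genes). The difference was 1.34 for JUN, 1.24 for JUNB, 1.08 for JUND and 0.85 for MYC. It was -0.55 for SRF and -0.65 for FOSL2, and 3 other probe sets of FOSL2 went the other way. All 3 arrays of each group entered each of these values.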

How the results depend on the processing

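With 3 arrays per group and low signals for FOS, FOSB and EGR1, small changes of these genes are the least certain. The counts of factors called stayed within 1.5 times of the reported ones in all 114 combinations of an alternative setting and a comparison. As the factors are few and most were called, counts could hardly leave this range, and the check is a weak one. Of 962 alternative values of single factors, 884 kept their direction and side of the threshold, 43 were no longer called, 7 became called and 28 changed sign. Many of these values could not change direction. The filters, the robust eBayes, fits on the compared groups, the replicate block and leaving out an array of another group keep the log2 change itself. The 884 are therefore no measure of how stable the directions are. The cause of the sign changes was not tested. For FOSL2 the values with changed sign at 24 hours were 0.77 (mean of probe sets), 1.19 (205409_at), 2.48 (218880_at) and 1.05 (218881_s_at). For the FOSL2 difference between times they were 0.59, 1.07, 2.21 and 0.80 in the same order, and for FOSL2 in HFM at 24 against 12 hours 0.31, 0.81, 1.68 and 0.40. FOSL2 at 12 hours was -0.050 with 225262_at. EGR1 at 24 hours was 0.51 with 201693_s_at, and its difference between times was 0.74 with that probe set, 0.16 with 227404_s_at and 0.23 with the mean of probe sets. SRF read by 202400_s_at gave 0.088 at 24 hours, 0.37 for the difference between times and 0.037 in HFM at 24 against 12 hours. With the term for the hybridisation controls, 24 against 12 hours in GM was 0.16 for MYC, 0.23 for SRF and 0.066 for FOSL2, JUND at 12 hours was 0.041, and the FOSL1 difference between times was -0.17. Leaving out 1 array gave values of this FOSL1 difference between -0.033 and 0.14, below 0 without HFM replicate 2 or 3 of 12 hours or HFM replicate 1 of 24 hours.

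With the mean of probe sets, EGR1 at 24 hours was -0.14 (adjusted p = 0.059) and the SRF difference between times -0.09 (adjusted p = 0.53), both without a call. Leaving out each array in turn gave 5 to 6 factors called at 12 hours, 8 at 24 hours, 6 for the difference between times, 5 to 6 for time in GM and 8 for time in HFM. With the replicate number as a block, 7 factors were called at 12 hours, 8 at 24 hours, 6 for the difference between times, 6 for time in GM and 8 for time in HFM, as without it. Same-numbered arrays of HFM and GM had deviations from their group means that correlated at -0.165 to 0.255. At 12 hours 2 of 6 arrays and at 24 hours 3 of 6 correlated best with their own number. With 3 arrays per group these values show no clear pairing by number but cannot settle whether the arrays were paired.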
